A study of Mus musculus with 6 samples.

Results

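The 26S proteasome is the protease that breaks down proteins marked with ubiquitin. Its barrel-shaped 20S core holds the proteolytic sites, in the beta subunits Psmb5, Psmb6 and Psmb7, and 19S particles at its ends recognise, unfold and feed in the substrates. Other caps can replace the 19S particle, among them PA28, a ring built from the products of Psme1 and Psme2. Interferons are known to induce PA28 and 3 replacement catalytic subunits (Psmb8, Psmb9 and Psmb10, together the immunoproteasome), whereas the transcription factor NRF1, encoded by Nfe2l1, is known to raise the constitutive subunit genes together when proteasome activity falls short.

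The genes described here are the constitutive proteasome genes of MLL-AF9 leukemia cells, taken by name: every gene symbol made of Psma to Psmg and a number, without Psmb8, Psmb9 and Psmb10, with a mean of at least 1 FPKM over the 6 libraries. FPKM are fragments mapped to a gene, scaled by its length and by the number of mapped fragments. Of 45 such symbols among 26384 gene entries, 43 reached this minimum. The lowest of them was Psmf1, at a mean of 11.1 FPKM, while Psma8, a testis-specific core subunit, and Psmb11, the thymic one, were left out at means of 0.0149 and 0.00651 FPKM. Psmb5 shares its entry with Mir686 and Psmd9 with Wdr66, so the values of these 2 are those of merged entries.

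Both groups carried MLL-AF9 cells, which are mouse bone marrow progenitors transformed by a retrovirus that encodes the MLL-AF9 fusion oncogene and GFP, and which had been passed serially through mice. The cells grew in nonirradiated young adult C57BL/6J mice with a working immune system. Mice received vehicle (3 libraries) or FF-10501-01, an oral inhibitor of the guanine nucleotide enzyme IMPDH (3 libraries, 160 mg/kg on 2 consecutive days), and GFP+ bone marrow cells were sorted 48 h after the first dose, although the RNA-Seq methods give a shorter interval. The sample descriptions call the vehicle water and the methods call it methyl cellulose. Replicate numbers are given by column order and do not identify a mouse. The p-values set the difference between the groups against the spread between the 3 libraries of a group. The fit draws this spread toward a trend over all entries tested.

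Summed FPKM were 531092 to 551958 per library, and depth relative to vehicle replicate 1, read from small whole ratios among low genes, was 0.986 to 1.25. Markers of leukemic myeloid cells (8 of 8 found) summed to 1225 to 1336 FPKM in vehicle-treated and 1266 to 1429 FPKM in FF-10501-01-treated libraries. Behind these overlapping sums, 3 of the 8 were higher and 1 was lower in treated libraries, and 4 did not pass. All 10 lymphoid markers were below 1 FPKM in all 6 libraries, with Pax5 at 0 throughout, and they summed to 0.445 to 0.767 FPKM in vehicle and 0.497 to 0.676 FPKM in treated libraries. Of the erythroid markers 8 of 10 were found, Hbb-b1 and Slc4a1 were at 0 throughout, and the sums were 2.24 to 8.45 and 0.273 to 3.65 FPKM. Of 9 stromal and endothelial markers, 7 were below 1 FPKM in all libraries, Tek was at 0, and the sums were 49.9 to 55.0 and 51.3 to 61.5 FPKM. Mature neutrophil markers (10 of 10 found, none at 0 in all libraries) summed to 542 to 591 FPKM in vehicle and 925 to 1906 FPKM in treated libraries. Tissue macrophage markers (10 of 10 found) summed to 67.1 to 77.6 and 94.6 to 114.6 FPKM, mostly from Vcam1 and Emr1, which rose together with Siglec1, while Cd163 did not pass (log2 fold change -1.02, limma adjusted p = 0.0532). By mass and flow cytometry, the paper reports that the drug raised Vcam1 on the leukemia cells themselves. Which cells the rise of the tissue macrophage sum came from was not tested. The sums of megakaryocyte and platelet markers (8 of 8 found) were 16.0 to 16.8 and 21.9 to 29.5 FPKM. In such bulk RNA, fewer cells of a type and less RNA per cell cannot be told apart.

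Expression of the core and the 19S particle differed little between the groups, and the only members past the threshold were Psme2, a PA28 subunit, which was higher in FF-10501-01-treated cells, and Psmf1, which encodes the proteasome inhibitor PI31 and was lower. Groups were compared as log2(FPKM + 1) with limma over the 11004 entries with a mean of at least 1 FPKM, two-sided, and an adjusted p under 0.05 (Benjamini-Hochberg over all entries) counted as passed. With 1 higher and 1 lower of 43 members, 4.65% passed, while 14.9% of all entries tested did (7.43% higher and 7.46% lower, which became 1008 higher and 667 lower entries, in place of 818 and 821, with FPKM rescaled to TPM). At an unadjusted p under 0.05 from limma, 3 members were higher and 6 lower. The share of all entries at this unadjusted threshold was not counted. These counts, and the same counts for single complexes below, therefore have no background to be read against. The median log2 fold change of the members was -0.02, beside -0.01 over all entries tested. FF-10501-01 libraries lay wholly above the vehicle libraries for 5 members and wholly below them for 12, together 39.5% of members, and such separation was found for 38.8% of all entries (17.6% above and 21.2% below).

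**Figure D1:**
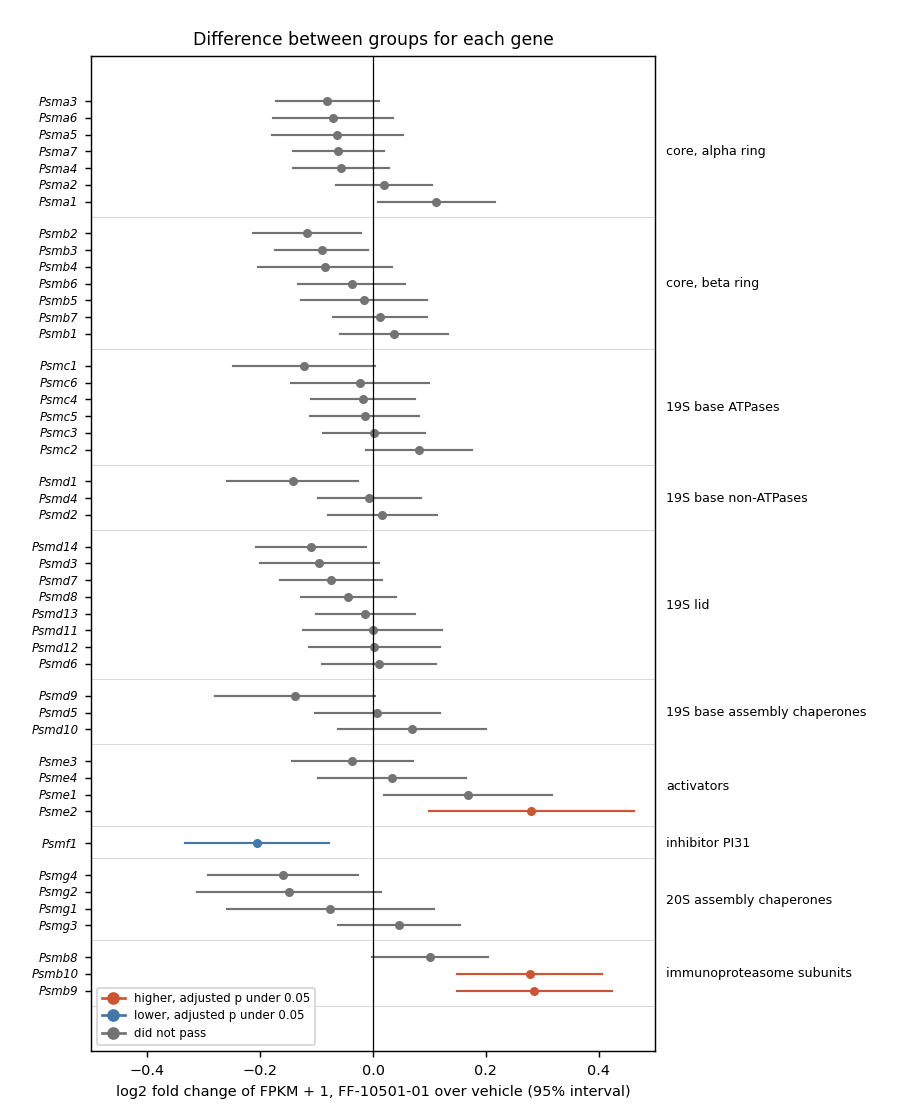
Log2 fold change of FPKM + 1, FF-10501-01 over vehicle, for the 43 constitutive proteasome genes and the 3 immunoproteasome genes, with 95% intervals from limma (3 libraries per group). Most points lie close to 0, Psme2 (0.28), Psmb9 (0.29) and Psmb10 (0.28) lie to the right and Psmf1 (-0.21) to the left.

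The 14 subunit genes of the 20S core were abundant and nearly level between the groups. Their mean levels ranged from 81.8 FPKM for Psma5 to 224 FPKM for Psmb1, a 2.74-fold range on this per-length scale. A core built only from these subunits holds their products in equal numbers. The lowest of the 14 stood above 89.4% of all entries tested. None passed, with 1 gene higher and 2 genes lower where only an unadjusted p under 0.05 was asked (limma), and their median log2 fold change was -0.06 (-0.03 without vehicle replicate 2). The 95% intervals of the log2 fold change all lay between -0.21 and 0.22, so that changes beyond 13.8% down or 16.1% up lay outside every one of them.

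Among the catalytic subunits, Psmb5, which carries the chymotrypsin-like site, was at 116, 129.954 and 119.9 FPKM in the vehicle and at 123, 118 and 121 FPKM in the FF-10501-01 libraries. Psmb6, with the caspase-like site, was at 98.7, 106 and 103 FPKM against 101, 101 and 97.3 FPKM. Psmb7, with the trypsin-like site, was at 153, 161 and 159 FPKM against 158, 160.1 and 159 FPKM. The groups overlapped for all 3 genes, whose log2 fold changes were -0.02, -0.04 and 0.01 (limma adjusted p between 0.550 and 0.849). GENCODE also lists pseudogenes of all 3, without entries of their own, and reads shared with them were not tested. Psmb1, the most abundant beta subunit, was at 218, 228 and 218 FPKM and at 224, 236 and 220.0 FPKM (log2 fold change 0.04, limma adjusted p = 0.566).

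Psmb2 and Psmb3, structural beta subunits, lay below the vehicle range in every treated library without passing. For Psmb2 the vehicle values were 173, 178 and 163 FPKM and the treated values 158, 159 and 158 FPKM (log2 fold change -0.12, SE 0.042, limma adjusted p = 0.0923, 0.0401 with quantile normalization). In the alpha ring, whose subunits form the gate of the core, Psma3, Psma4 and Psma7 also lay below the vehicle range, with changes in the mean of -5.54%, -3.92% and -4.20%. Psma1 was the one core gene whose treated libraries lay above the vehicle range, at 229, 232 and 227 FPKM against 201, 211 and 224 FPKM (log2 fold change 0.11, limma adjusted p = 0.124). The least abundant core gene, Psma5, was at 81.9, 88.3 and 80.6 FPKM and at 76.3, 81.3 and 82.3 FPKM, and its groups overlapped.

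**Figure D2:**
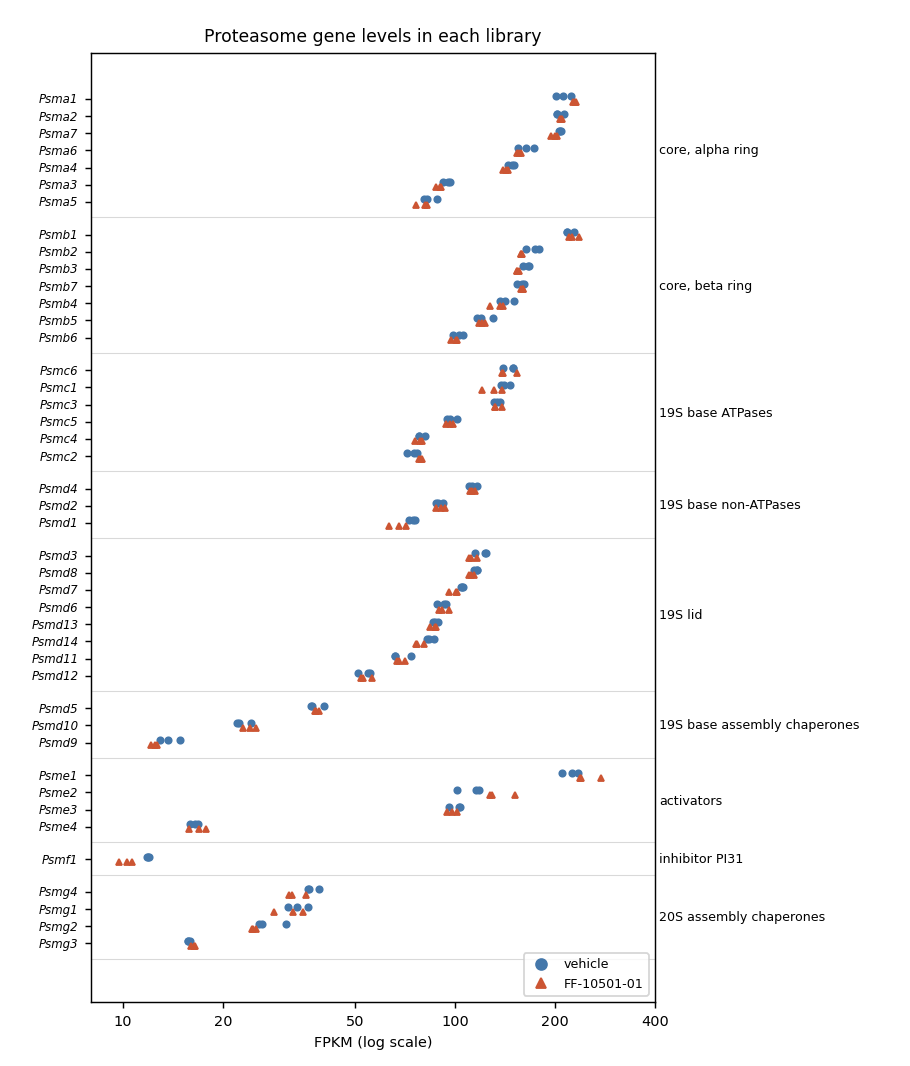
FPKM (log axis) of each constitutive proteasome gene in each of the 6 libraries, grouped by complex and ordered by mean level, with circles for vehicle and triangles for FF-10501-01. Core and 19S genes lie between about the levels of Psmd12 (53.5 FPKM) and Psmb1 (224 FPKM), while assembly chaperones and Psmf1 lie lower.

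The 17 genes of the 19S particle likewise held their levels. None passed, with 0 genes higher and 2 genes lower where only an unadjusted limma p under 0.05 was asked, and the median log2 fold change was -0.01, which turned to just above 0 with median-of-ratios or TPM scaling and without vehicle replicate 2 or FF-10501-01 replicate 3 (0.00 each). Mean levels ran from 53.5 FPKM for Psmd12 to 145 FPKM for Psmc6. The ATPases Psmc1 to Psmc6 form the ring that unfolds substrates, and their median was -0.02. Psmc6, the most abundant of them, was at 149, 149.6 and 139 FPKM and at 139, 154 and 138 FPKM, and the least abundant, Psmc2, was at 75.0, 76.5 and 71.5 FPKM and at 78.7, 77.8 and 79.6 FPKM. Psmc6 overlapped between the groups, while Psmc2 lay above the vehicle range in all 3 treated libraries (log2 fold change 0.08, limma adjusted p = 0.209). Psmc1 had the largest estimate among the ATPases, -0.12 (limma adjusted p = 0.162).

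Of the non-ATPase base subunits, Psmd4, the ubiquitin receptor, was at 112, 117 and 110.2 FPKM and at 110.5, 115 and 112 FPKM, with overlapping groups. Psmd1, a scaffold of the base, was at 75.7, 74.5 and 72.7 FPKM in vehicle and at 71.0, 67.7 and 63.1 FPKM in treated libraries. Every treated value of Psmd1 was below every vehicle value, and it had the largest estimate in size of the 31 core and 19S genes (log2 fold change -0.14, 95% interval -0.26 to -0.03, limma adjusted p = 0.0911). In the lid, Psmd14, the deubiquitinase that removes ubiquitin chains from the substrate, was at 86.5, 83.5 and 82.0 FPKM and at 80.5, 76.7 and 76.1 FPKM. It lay below the vehicle range throughout (log2 fold change -0.11, limma adjusted p = 0.113). The most abundant lid gene, Psmd3, was at 123, 124 and 114 FPKM and at 117, 112 and 110.0 FPKM, and the least abundant, Psmd12, at 50.8, 55.3 and 54.4 FPKM and at 52.6, 56.1 and 52.04 FPKM. Both were among the 6 of 8 lid genes whose groups overlapped. Of the 31 core and 19S genes together, 9 had a log2 fold change above 0 and 22 below it. Over all entries tested, 46.6% had one above 0. These signs depend on scaling, as the median over all entries was -0.013 as deposited and 0.003 with FPKM rescaled to TPM. A 95% interval within 0.25 of 0 on the log2 scale was found for 30 of the 31 genes.

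The sum over all 43 members made up 0.818% to 0.843% of the summed FPKM in vehicle and 0.825% to 0.843% in treated libraries, so that the ranges overlapped. Among the libraries, vehicle replicate 2 was above its group's mean for 38 of 43 members, and it was so for 53.6% of all entries tested. Its median deviation was 0.04 on the log2 scale for the members and 0.01 for all entries. Without this library the median log2 fold change of the members was -0.02, the same to 2 decimals as with it. Among treated libraries, replicates 1, 2 and 3 were above the group's mean for 24, 31 and 12 members.

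The assembly chaperones among the members were expressed below the subunits they help to assemble, on the per-length scale. Pomp, a core assembly factor that is not a member, was at a mean of 181 FPKM, within the range of the core subunits. The chaperones of the 19S base, Psmd5, Psmd9 and Psmd10, ranged from 13.1 to 38.2 FPKM in the mean and those of the core, Psmg1 to Psmg4, from 16.0 to 35.1 FPKM. Of these 7 genes 0 passed limma's test, and 1 was lower at an unadjusted p under 0.05. That gene, Psmg4, was at 36.2, 39.0 and 36.0 FPKM in vehicle and at 32.3, 31.6 and 35.4 FPKM in treated libraries. All 3 treated values lay below the vehicle range (log2 fold change -0.16, SE 0.058, limma adjusted p = 0.0953). Psmg2, whose product pairs with that of Psmg1, was also below the vehicle range, at 24.5, 25.1 and 24.6 FPKM against 26.2, 31.0 and 25.7 FPKM (log2 fold change -0.15, limma adjusted p = 0.186). Psmg3, the least abundant of the core chaperones, lay slightly above it, at 16.0, 16.3 and 16.5 FPKM against 15.7, 15.6 and 15.9 FPKM. Psmd5, the most abundant base chaperone, was at 36.9, 40.2 and 37.1 FPKM and at 38.1, 38.8 and 37.9 FPKM, with overlapping groups. The merged entry of Psmd9 and Wdr66, the least abundant, was at 13.6, 14.8 and 12.9 FPKM and at 12.7, 12.5 and 12.1 FPKM, below the vehicle range (limma adjusted p = 0.162).

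Psmf1 encodes PI31, first described as an inhibitor of the isolated 20S core. It lies on chromosome 2 of GRCm38 from 151715812 to 151744186. Expression was 11.9, 11.8 and 12.0 FPKM in vehicle and 10.3, 10.6 and 9.70 FPKM in FF-10501-01 libraries. The vehicle values were nearly equal (11.9 ± 0.0736 FPKM, SD, n = 3), and every treated value was lower (10.2 ± 0.460 FPKM). The log2 fold change was -0.21 (SE 0.056, 95% interval -0.33 to -0.08, limma adjusted p = 0.0426). This call was lost on leaving out any 1 of the 6 libraries, with an adjusted p of 0.107, 0.0721 and 0.102 without vehicle replicates 1, 2 and 3 and of 0.0864, 0.0731 and 0.134 without FF-10501-01 replicates 1, 2 and 3 (limma). It was also lost with FPKM rescaled to TPM (0.0561) and with no filter on low values (0.0778).

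Of the 4 activator genes, the PA28 pair Psme1 and Psme2 lay above the vehicle range in all treated libraries. These 2 genes lie near each other on chromosome 14 of GRCm38, from 55578123 to 55581529 and from 55587441 to 55591113. Psme2, which encodes the beta subunit of PA28, was at 101, 118 and 115 FPKM in vehicle and at 127, 129 and 151 FPKM in FF-10501-01 libraries. Every treated value exceeded every vehicle value, with the highest in treated replicate 3. Psme2 rose from 111 ± 8.86 to 136 ± 13.3 FPKM (SD, n = 3), a log2 fold change of 0.28 (SE 0.079, 95% interval 0.10 to 0.46, limma adjusted p = 0.0483).

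The call of Psme2 held without vehicle replicate 2 (limma adjusted p = 0.0458) and was lost without vehicle replicate 1 (0.144) or 3 (0.0868) and without FF-10501-01 replicate 1 (0.0588), 2 (0.0747) or 3 (0.136), while the log2 fold change stayed between 0.20 and 0.32. It was also lost with no filter on low values (0.108) and with eBayes run without a trend (0.0814). Psme2b, a near copy of Psme2 on chromosome 11 in the GENCODE annotation, has no entry of its own, and its part in the value of Psme2 was not tested. Psme1, the alpha subunit of PA28 and the most abundant member at a mean of 237 FPKM, was at 209, 234 and 225 FPKM in vehicle and at 239, 238 and 274 FPKM in treated libraries. The gap between the groups was narrow, and the log2 fold change of 0.17 (SE 0.065, 95% interval 0.02 to 0.32) did not pass (limma adjusted p = 0.111).

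Psme3, which encodes the nuclear PA28 gamma, was at 102, 103 and 95.5 FPKM in vehicle and at 101, 94.3 and 97.7 FPKM in treated libraries. Its groups overlapped (log2 fold change -0.04, limma adjusted p = 0.614). Psme4, the large single-chain activator PA200 and the least abundant activator gene, was at 16.8, 16.5 and 15.9 FPKM and at 17.7, 15.8 and 16.9 FPKM, again with overlap (log2 fold change 0.03, limma adjusted p = 0.717). Within a library, the ratio of Psme1 to Psme3 was 2.04, 2.27 and 2.36 in vehicle and 2.36, 2.53 and 2.80 in treated cells.

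The immunoproteasome subunits, which are not among the 43 genes, moved in the direction of Psme2. Of the 3, Psmb9 and Psmb10 were higher and Psmb8 did not pass. Psmb9, the replacement for Psmb6, was at 94.9, 100.03 and 102 FPKM in vehicle and at 119.6, 112 and 131 FPKM in treated libraries. Psmb10, the replacement for Psmb7, was at 61.9, 69.8 and 69.3 FPKM and at 81.2, 78.4 and 84.2 FPKM. Both were separated between the groups and rose, with log2 fold changes of 0.29 (SE 0.060, limma adjusted p = 0.0213) and 0.28 (SE 0.056, limma adjusted p = 0.0207). Both calls were lost without vehicle replicate 1 (adjusted p = 0.0749 for Psmb9 and 0.0522 for Psmb10) and without FF-10501-01 replicate 3 (0.0673 and 0.0791), and that of Psmb9 also without vehicle replicate 3 (0.0501, all limma). With no filter on low values neither passed (0.0563 and 0.0513). Psmb8, the replacement for Psmb5, was already the most abundant of the 3 in vehicle, at 205, 194 and 215 FPKM, and at 216, 219.7 and 224 FPKM in treated libraries (log2 fold change 0.10, limma adjusted p = 0.157).

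**Figure D3:**
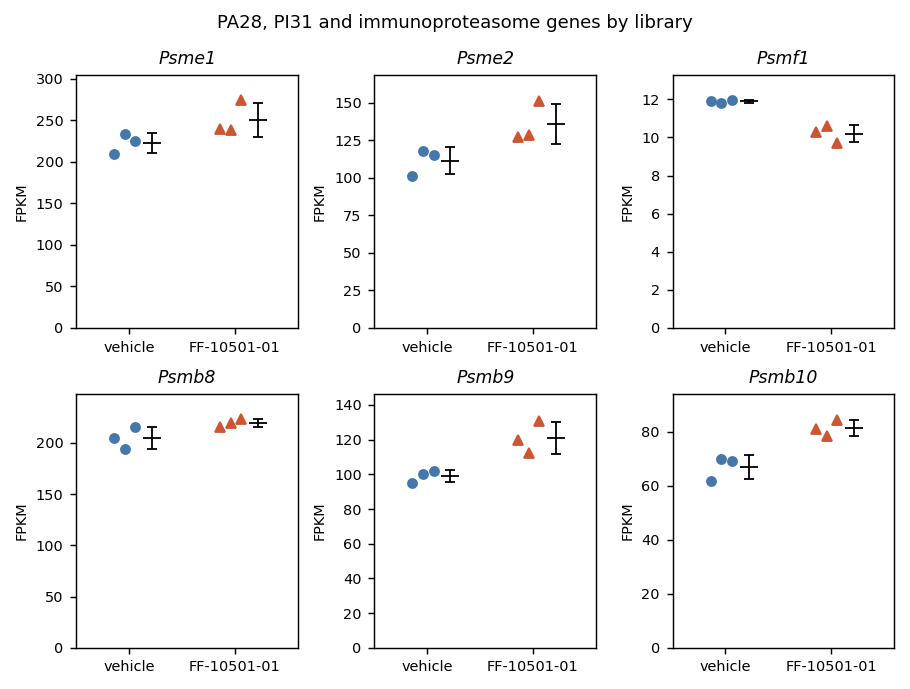
FPKM of Psme1, Psme2, Psmf1, Psmb8, Psmb9 and Psmb10 in each library (circles vehicle, triangles FF-10501-01, in order of replicate number), with the mean and SD of each group as a bar; axes start at 0. Treated libraries lie above the vehicle libraries in 5 panels and below them in that of Psmf1.

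Ratios within a library do not change when each library is scaled by 1 factor, so each immunoproteasome subunit was set against its constitutive counterpart. Psmb9 over Psmb6 was 0.962, 0.948 and 0.990 in vehicle and 1.19, 1.11 and 1.35 in treated libraries. Psmb10 over Psmb7 was 0.403, 0.434 and 0.436 and then 0.515, 0.490 and 0.528. These ratios did not overlap between the groups. Psmb8 over Psmb5 was 1.763, 1.496 and 1.794 in vehicle and 1.75, 1.86 and 1.85 in treated libraries, with overlap. The 3 immunoproteasome genes together made up 47.9% to 50.3% of the summed FPKM of the 6 catalytic subunit genes in vehicle and 51.997% to 53.8% in treated cells.

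**Figure D4:**
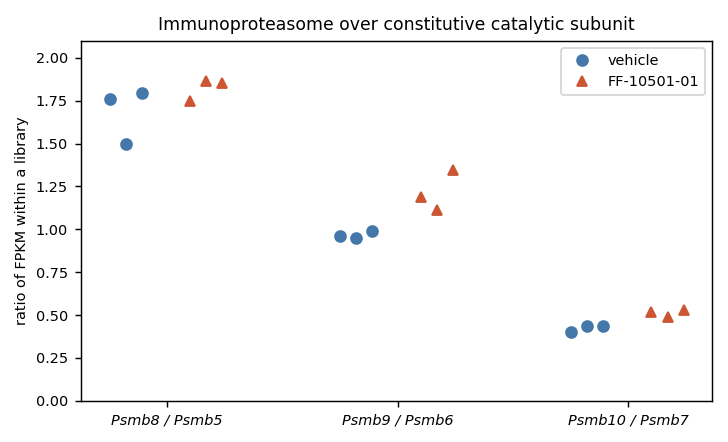
Ratio of FPKM of each immunoproteasome subunit gene to its constitutive counterpart within each library (circles vehicle, triangles FF-10501-01, linear axis from 0). Psmb9 over Psmb6 and Psmb10 over Psmb7 lie higher in all treated libraries, whereas Psmb8 over Psmb5 overlaps.

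Mature neutrophil markers moved with the same groups as Psme2, Psmb9 and Psmb10, and 6 of the 8 that were tested rose. Their sum was 568, 591 and 542 FPKM in vehicle and 925, 1211 and 1906 FPKM in treated libraries, so that treated replicate 3 had the highest sum and also the highest Psme1, Psme2, Psmb9 and Psmb10. Treated replicate 1 had the lowest sum of the treated libraries but exceeded replicate 2 in Psmb9 and Psmb10. From morphology and flow cytometry, the paper reports that the drug induced myeloid differentiation of the leukemia cells in mice. Whether the neutrophil markers came from leukemia cells or from other cells was not tested. Their part in the changes of Psme2, Psmb9 and Psmb10 was not tested either.

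Promoter windows from RefSeq (GRCm38.p6, 250 bases before to 50 after the start) were found for 36 of the 43 members. They were searched on both strands for the interferon-stimulated response element as GAAA, any 2 bases and GAAA again, the interferon gamma-activated sequence as TTCNNNGAA, the element bound by NRF1 as TGACNNNGC, the NF-Y box CCAAT and the E-box CACGTG. No match of one motif overlapped a match of another. The first of these was in the windows of 5 of the 36 members (13.9%) and of 3.99% of all genes with a window. The 5 sites are shown because they include Psme1, with the match in capitals within 30 bases of the coding strand, where a match on the other strand begins and ends with TTTC.
Psme1 (chr14:55578493-55578522, plus strand): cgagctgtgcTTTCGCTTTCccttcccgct
Psmb3 (chr11:97703261-97703290, plus strand): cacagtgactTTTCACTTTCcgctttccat
Psmd4 (chr3:95042675-95042704, minus strand): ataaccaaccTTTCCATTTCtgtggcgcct
Psmd9 (chr5:123228021-123228050, plus strand): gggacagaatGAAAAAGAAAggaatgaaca
Psmg4 (chr13:34162969-34162998, plus strand): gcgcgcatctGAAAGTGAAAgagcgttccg
The log2 fold changes of these genes were 0.17 for Psme1, -0.09 for Psmb3, -0.01 for Psmd4, -0.14 for the merged entry of Psmd9 and -0.16 for Psmg4, and none of them passed. Of the 5 members with this match 4 had an estimate below 0, as had 28 of all 43 members. A link of this match to the changes was not tested.

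Neither member that passed held a match to any of the 5 motifs. Their 250 bases before the start, taken from the most upstream RefSeq start, are printed for that reason, in lower case as nothing in them matched. In GENCODE the gene of Psmf1 extends farther, so that its stretch lies within that gene, and the last bases of the Psme2 stretch also lie within that gene.
Psme2 (chr14:55591102-55591351, minus strand): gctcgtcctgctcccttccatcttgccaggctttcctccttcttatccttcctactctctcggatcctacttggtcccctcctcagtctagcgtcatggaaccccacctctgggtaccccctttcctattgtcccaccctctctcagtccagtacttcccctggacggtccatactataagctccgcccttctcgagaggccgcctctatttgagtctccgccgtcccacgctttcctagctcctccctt
Psmf1 (chr2:151741311-151741560, minus strand): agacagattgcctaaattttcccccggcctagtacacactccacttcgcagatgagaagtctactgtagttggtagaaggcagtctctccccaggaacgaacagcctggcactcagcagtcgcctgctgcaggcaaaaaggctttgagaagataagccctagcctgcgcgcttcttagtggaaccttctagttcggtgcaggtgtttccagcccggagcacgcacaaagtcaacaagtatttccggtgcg
Such an absence says only that these letters are not in the window.

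TGACNNNGC was in the windows of 6 members (16.7%), beside 13.99% of all genes, and CCAAT in those of 12 (33.3%, beside 41.1%). The NRF1-type sites are shown since they mark core, 19S and activator genes, and a match on the other strand begins with GC and ends with GTCA.
Psmb5 (chr14:54618023-54618052, minus strand): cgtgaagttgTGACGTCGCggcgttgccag
Psmb6 (chr11:70525338-70525367, plus strand): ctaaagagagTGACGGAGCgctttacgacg
Psmc6 (chr14:45329587-45329616, plus strand): ccagccagtaGCTAAGTCAggcattgctca
Psmd12 (chr11:107479278-107479307, plus strand): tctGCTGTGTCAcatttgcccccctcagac
Psmd9 (chr5:123228149-123228178, plus strand): atctagccggTGACCCCGCccacttccaag
Psme4 (chr11:30771758-30771787, plus strand): cgctgcggctGCAGCGTCAccagaagagcc
None of these 6 genes passed, and their log2 fold changes were -0.02, -0.04, -0.02, 0.00, -0.14 and 0.03 in the order shown. TTCNNNGAA was in the windows of 2 members (5.56%, beside 9.55%) and CACGTG in those of 3 (8.33%, beside 8.09%).

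Other genes around the proteasome were read from lists of partners, NRF1 processing, shuttle factors and ubiquitin. In the list of transcription factors and of NRF1 processing, 1 of 12 genes was higher and 0 were lower. Nfe2l1 itself was at 38.1, 40.8 and 37.0 FPKM in vehicle and at 39.3, 39.6 and 38.7 FPKM in treated libraries, with overlap (log2 fold change 0.02, limma adjusted p = 0.790). Nfe2l2, which encodes the oxidative stress factor NRF2, was the gene that passed. It was at 17.9, 20.4 and 24.2 FPKM in vehicle and at 25.9, 27.4 and 29.1 FPKM in treated libraries. These did not overlap, and the log2 fold change was 0.39 (SE 0.098, limma adjusted p = 0.0346). Its call held without vehicle replicate 3 (0.0318) and was lost without each of the other libraries, vehicle replicates 1 and 2 (0.0905 and 0.0627) and FF-10501-01 replicates 1, 2 and 3 (0.0543, 0.0851 and 0.123, all limma), with no filter (0.0889) and with eBayes run without a trend (0.0583). The most abundant gene of this list that did not pass was the merged entry of Mafg, a small partner of both factors (log2 fold change 0.09, limma adjusted p = 0.235).

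Of 13 further subunits and partners, 1 was lower and 0 were higher. Usp14, a deubiquitinase bound to the 19S particle, was at 33.3, 31.7 and 32.5 FPKM in vehicle and at 29.7, 28.6 and 28.5 FPKM in treated libraries (log2 fold change -0.16, limma adjusted p = 0.0445). Its treated values lay below the vehicle range, but the call was lost on leaving out any 1 library (adjusted p from 0.0502 to 0.130), with no filter (0.0583), with median-of-ratios scaling (0.0559), with TPM (0.0796) and with eBayes run without a trend (0.0666). Shfm1, a small lid subunit and the most abundant gene of this list, had a log2 fold change of 0.14 (limma adjusted p = 0.135, 0.0342 with quantile normalization). Of the 12 genes of the segregase p97 and of shuttle factors, 1 was lower and 0 were higher. Rad23b, which delivers ubiquitinated proteins, was at 83.3, 80.6 and 80.5 FPKM and at 74.8, 72.5 and 73.5 FPKM (log2 fold change -0.14, limma adjusted p = 0.0417), and this call was lost on leaving out any 1 library (0.0560 to 0.120), with no filter (0.0528), with median-of-ratios scaling (0.0539), with TPM (0.0746) and with eBayes run without a trend (0.0800). Sqstm1, an autophagy receptor for ubiquitinated proteins, was at 105, 99.0 and 90.3 FPKM and at 83.3, 89.0 and 78.8 FPKM, below the vehicle range without passing (log2 fold change -0.22, limma adjusted p = 0.0527), and it passed with a minimum of 5 FPKM (0.0471), with quantile normalization (0.0387) and without vehicle replicate 3 (0.0472). Vcp, which encodes p97 and was the most abundant, was at 173, 175 and 168 FPKM and at 164, 162 and 150.2 FPKM (log2 fold change -0.12, limma adjusted p = 0.107).

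Of the genes around ubiquitin, Rps27a, which encodes ubiquitin fused to a ribosomal protein, was at 639, 575 and 627 FPKM and at 528, 528 and 525 FPKM. Its treated values lay below the vehicle range, and it fell with a log2 fold change of -0.22 (SE 0.045, limma adjusted p = 0.0210), a call lost without vehicle replicate 1 (0.0737) or 3 (0.0655) and without FF-10501-01 replicate 2 (0.05002) or 3 (0.0781), with no filter (0.0598) and with eBayes run without a trend (0.0509). Ubb, a polyubiquitin gene, was at 582, 615 and 582 FPKM and at 554, 608 and 489.6 FPKM, with overlap (log2 fold change -0.11, limma adjusted p = 0.309). Uba1, the main ubiquitin-activating enzyme, was at 169, 170.0 and 169 FPKM and at 171, 169 and 167 FPKM (log2 fold change 0.00, limma adjusted p = 0.998).

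**Figure D5:**
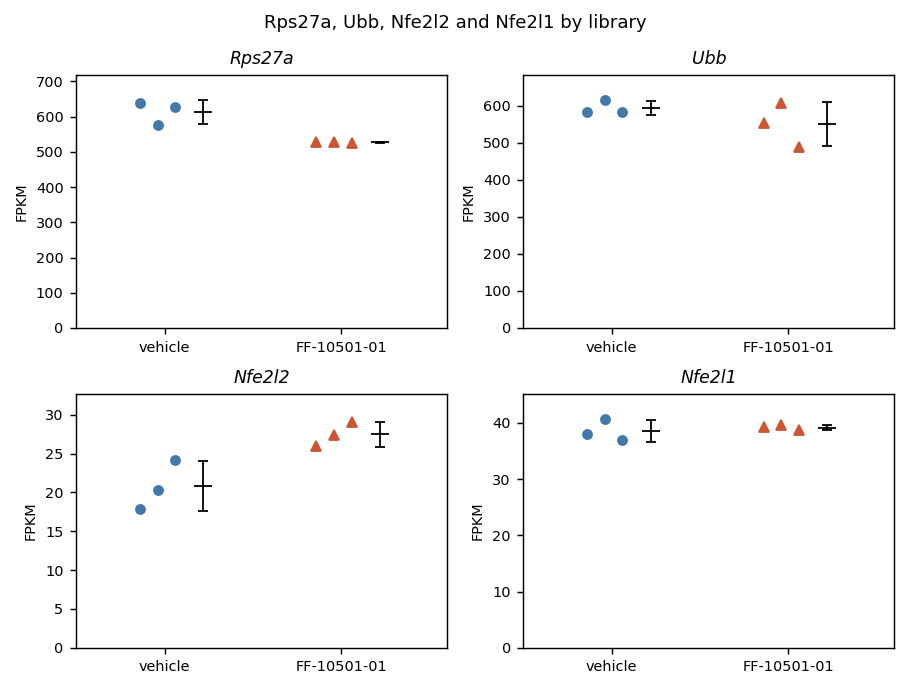
FPKM of Rps27a, Ubb, Nfe2l2 and Nfe2l1 in each library (circles vehicle, triangles FF-10501-01), with the mean and SD of each group as a bar; axes start at 0. Treated libraries lie below the vehicle libraries for Rps27a, above them for Nfe2l2, and overlap them for Ubb and Nfe2l1.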

How the data were processed

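RNA-Seq of sorted GFP+ MLL-AF9 cells was analysed from 1 table of 26384 gene entries and 6 samples. FPKM per gene, as deposited, came from the authors' run of Cufflinks 2.2.1 on TopHat2 2.1.1 alignments to GRCm38, after adapter trimming by cutadapt 1.8.1 (paired-end reads). FPKM carry no read totals and hence no counting intervals were given, and relative depth was estimated from entries at low FPKM (73.6% to 74.6% of which stood in small whole ratios). All 6 columns were used, and they give the group of a sample but not which sample it is.

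The fit used limma 3.58.1 under R 4.3.3 on log2(FPKM + 1) (treatment as the only term, eBayes with a trend, Benjamini-Hochberg over 11004 entries). A value over merged genes was kept as 1 entry. Cuffdiff, the test of the study, needs reads. Fold changes on this scale understate those of low genes. The fit was tested on simulated data. Gene positions are from GENCODE M21 (GRCm38), and figures were drawn with Python 3.11.15 and matplotlib 3.10.9.

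The genes described and the lists were chosen with earlier results of these data known, so that lists are given by counts and medians. Named genes were to be the members past the threshold, the catalytic subunits, the activators, Psmf1 and the most and least abundant of each complex, and in other lists at most 4 genes ranked by p, plus the gene of highest level among those not passed. Psma1, Psmb2, Psmd1, Psmd14, Psmg4 and others given with values were added after their values were seen. The alternatives tried were leaving out single libraries, blocking on replicate number, eBayes with no trend, 3 other scalings (TPM, quantile, median of ratios), 0.1 as pseudocount, and a minimum of 5 FPKM or none. Some genes of the marker and ubiquitin lists are not reported here.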

Additional observations from a re-analysis of the deposited data

How the results depend on the processing

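Over 14 alternatives, 585 of 602 results of single members kept their side of the threshold. Most of these belong to the 41 members that did not pass and so had no call to lose. For the 2 members that passed, Psme2 and Psmf1, with 14 alternatives each, 16 results were lost calls. Psmb2 gained 1 call under quantile normalization, and none reversed. Members higher numbered 1, and 0 without the filter on low values and 0 for eBayes without a trend. Members lower numbered 1, and 0 without the filter, 0 with FPKM rescaled to TPM, 2 with quantile normalization and 0 with the replicate number as a block. Leaving out 1 library gave 0 to 1 higher and 0 to 0 lower. The sign of the log2 fold change was the same in all settings for 27 members and changed in at least 1 for 16, whose values reached at most 0.141 in size under any setting.

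Over all entries, 337 were higher and 244 lower without the filter, 586 and 512 without the trend, and 147 to 884 and 71 to 789 on leaving out 1 library. The block left the call of Psme2 (adjusted p = 0.0400 from limma) and ended those of Psmf1 (0.0745), Usp14 (0.0642) and Rad23b (0.0627), while Sqstm1 passed with it (0.0424). Same-numbered libraries deviated with correlations of -0.01, -0.07 and -0.04, and differently numbered ones with correlations between -0.11 and 0.13. These values gave no sign that the numbers pair the samples. They cannot exclude pairing, since the column order does not identify a mouse. With 3 libraries per group, differences of the size seen for most members lie within the intervals given.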
